A study of Homo sapiens with 6 samples.

Results

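The MYC network is a set of transcription factors that pair through a shared helix-loop-helix zipper and compete for the same short DNA element, the E-box. MYC activates growth genes when paired with MAX, and the MXD proteins and MNT pair with MAX on the same sites and recruit corepressors. A parallel branch is built on MLX, whose partner MondoA (gene MLXIP) moves to the nucleus when glucose 6-phosphate accumulates and switches on TXNIP and ARRDC4, which in turn restrain glucose uptake. In colorectal epithelium MYC is a well-known target of Wnt signalling.

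The 10 genes described here were fixed by name, and all 10 were found among the 26255 rows of each table: MYC, MAX, MXD1, MXD4, MXI1, MNT, MLX, MLXIP, TXNIP and ARRDC4. They were measured by messenger RNA sequencing in HT29, a long-established human colorectal adenocarcinoma cell line, after 24 h of treatment with YM155 (known as a survivin suppressant) or with the solvent DMSO as its control. Each treatment had 3 libraries. The labels give no dose and do not say whether the triplicates were separate cultures. The p-values therefore set each difference against a spread between libraries that may be technical. Titles and column headers of the treated libraries spell the compound YM115, and their treatment label reads YM155.

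Values are FPKM, sequenced fragments divided by transcript length in kilobases and by library size, which lets levels be set side by side between genes. FPKM summed to 538478 to 563296 per DMSO library and 678699 to 696067 per YM155 library, and no read totals were used. The most common FPKM ratio to DMSO replicate 1, among genes scarce in both libraries, was taken as the relative worth of 1 read. It was 0.997 and 1.11 in the other DMSO libraries and 1.52 to 1.78 in the YM155 libraries. On that reading, scarce transcripts were measured less precisely with YM155. Of 10 colorectal epithelial markers, 9 had a mean of at least 1 FPKM with DMSO and 8 with YM155. CDX1 was under 1 FPKM in all 6 libraries, and CDX2 was at 2.91 to 3.72 FPKM with DMSO and 0.686 to 0.973 with YM155. The 5 fibroblast markers summed to under 1 FPKM in each library, with DCN at 0 throughout. The 5 leukocyte markers summed to 1810.1 to 2075 FPKM with DMSO and 1921 to 2057 with YM155, nearly all of it from LYZ, the lysozyme gene, which secretory gut epithelium also makes, and PTPRC stayed at or below 0.0172 FPKM.

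All 10 members passed the filter (at least 1 FPKM in at least 3 libraries). Of these, 6 were higher and 4 lower with YM155 by limma at an adjusted p under 0.05, where 84.7% of the 12035 tested genes passed, 43.6% higher and 41.0% lower. Passing the test therefore does not set these genes apart, and the size and direction of each change carry the description. MXD1, MNT, MLX, MYC, MXI1 and MAX were the 6 higher genes. The rises of MXI1 and MAX turned into small falls that did not pass under upper-quartile, common-sum and quantile scaling, and the rise of MYC did not pass under quantile scaling. MXD4, TXNIP, ARRDC4 and MLXIP were the 4 lower genes. Groups did not overlap for 9 of the 10 members, against 85.9% of tested genes. In bulk RNA a smaller share of cells expressing a gene and less of its RNA per cell cannot be told apart.

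**Figure D1:**
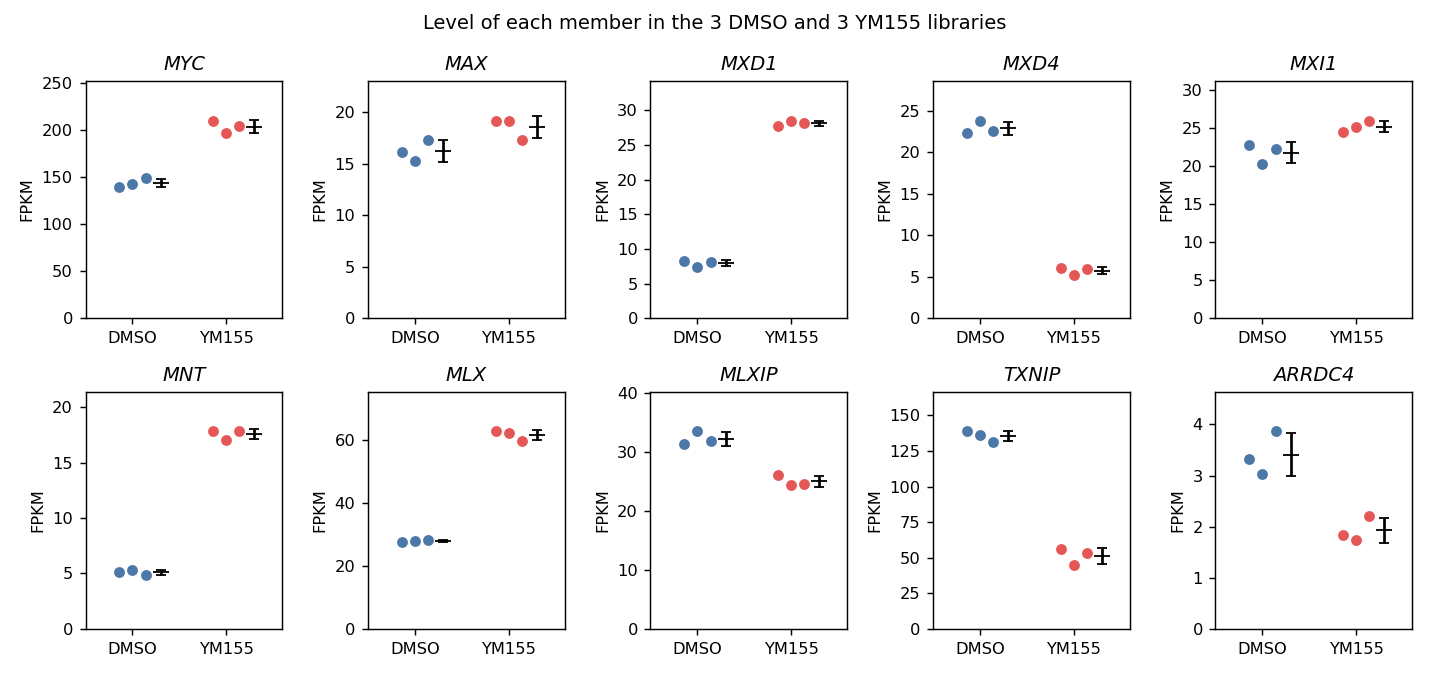
FPKM of each of the 10 members (vertical axes from 0, in FPKM, a scale of its own per gene) in the 3 DMSO and 3 YM155 libraries; points are libraries, and the dash with its bar is the mean with its SD. MXD1, MNT and MLX lie well above their DMSO values with YM155, MXD4 and TXNIP well below, and only MAX overlaps.

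MYC was the most abundant member in both groups. It was at 139.6, 142 and 149 FPKM in DMSO replicates 1 to 3 and at 209.7, 196 and 204 FPKM in YM155 replicates 1 to 3. Every YM155 library lay above every DMSO library, and the mean went from 143 ± 4.64 to 203 ± 6.82 FPKM (SD, n = 3), a 1.42-fold rise (log2 fold change of 0.50 with an SE of 0.04, adjusted p = 4.8e-06 by limma). A log2 fold change here and below is the difference in log2(FPKM + 1), YM155 minus DMSO. The rise ranked 3677 among the 12035 tested genes, so many genes rose further. It depended on scaling: the log2 fold change of MYC was 0.25 with upper-quartile scaling, 0.18 with common-sum scaling and 0.03 with quantile scaling (adjusted p = 0.51). MYC stood at the 96.6 percentile of tested genes by level with DMSO and at the 96.7 percentile with YM155.

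MAX, a partner of MYC and of its antagonists, changed least of the 10 on the deposited scale. That was not so under upper-quartile, common-sum or quantile scaling. It measured 16.2, 15.3 and 17.3 FPKM under DMSO and 19.2, 19.2 and 17.3 FPKM under YM155. YM155 replicate 3 lay just under DMSO replicate 3, so the groups overlapped (16.3 ± 1.04 and 18.6 ± 1.09 FPKM, log2 fold change of 0.18 with an SE of 0.07, adjusted p = 0.027 by limma). The call of MAX was lost without DMSO replicate 1 (adjusted p = 0.067), without DMSO replicate 2 (adjusted p = 0.097), without YM155 replicate 1 (adjusted p = 0.066) and without YM155 replicate 2 (adjusted p = 0.082), and with the replicate number as a block (adjusted p = 0.056). The log2 fold change of MAX was -0.06, -0.12 and -0.08 with upper-quartile, common-sum and quantile scaling. A ratio within a library does not depend on a scaling factor, but quantile scaling is not a single factor per library. Quantile scaling left the log2 fold changes of MYC (0.03) and MAX (-0.08) closer together than as deposited (0.50 and 0.18). The ratios given next are of the deposited values. MYC FPKM over MAX FPKM was 8.63, 9.31 and 8.57 with DMSO and 10.9, 10.2 and 11.8 with YM155, so this ratio was higher in every YM155 library, though part of MAX may be uncertain because its gene span overlaps FNTB and CHURC1-FNTB in RefSeq (1.40 to 3.96 FPKM on average) and the sources used here do not say whether counting used strand.

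Among the MAX-binding repressors, MXD1 and MNT rose and MXD4 fell, each by 3.44-fold or more. MXD1, induced in many cells as they leave the cycle and differentiate, measured 8.30, 7.45 and 8.11 FPKM under DMSO and 27.8, 28.5 and 28.1 FPKM under YM155. The groups lay far apart, and MXD1 rose 3.54-fold (7.95 ± 0.446 to 28.1 ± 0.366 FPKM, log2 fold change of 1.70 with an SE of 0.06, adjusted p = 9.3e-09 by limma). It moved from the 43.6 to the 73.5 percentile of tested genes by level.

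MNT, the most widely expressed of the MAX-binding repressors, measured 5.12, 5.33 and 4.86 FPKM under DMSO and 17.8, 17.1 and 17.8 FPKM under YM155. It rose 3.44-fold (5.103 ± 0.236 to 17.6 ± 0.444 FPKM, log2 fold change of 1.61 with an SE of 0.06, adjusted p = 1.6e-08 by limma). By size of rise, MXD1 ranked 631 and MNT 741 of 12035.

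MXD4, another MXD repressor, moved the opposite way. It measured 22.3, 23.8 and 22.6 FPKM under DMSO and 6.04, 5.21 and 5.94 FPKM under YM155, with no overlap. It fell 3.995-fold (22.9 ± 0.809 to 5.73 ± 0.455 FPKM, log2 fold change of -1.83 with an SE of 0.07, adjusted p = 1.7e-08 by limma), rank 154 among all falls. MXI1 (MXD2 in another naming) changed little: it measured 22.8, 20.2 and 22.2 FPKM under DMSO and 24.5, 25.1 and 25.98 FPKM under YM155. The MXI1 groups did not overlap (21.7 ± 1.36 and 25.2 ± 0.744 FPKM, log2 fold change of 0.21 with an SE of 0.06, adjusted p = 0.0080 by limma), but the sign turned to -0.04, -0.10 and -0.10 with upper-quartile, common-sum and quantile scaling.

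The remaining genes of the network, 5 that were not among the 10, included 2 further MYC paralogs. MYCL, encoding L-MYC, fell 5.50-fold, from 18.8 ± 0.711 to 3.41 ± 0.296 FPKM (adjusted p = 8.4e-09 by limma). MYCN, encoding N-MYC, was at or below 0.0677 FPKM in all 6 libraries and was not tested. MXD3, the MXD family member tied to dividing cells, fell 1.35-fold (25.3 ± 1.49 to 18.7 ± 0.806 FPKM, adjusted p = 1.3e-04). MGA, a large MAX partner of a noncanonical Polycomb complex, was at 3.60 ± 0.344 and 3.30 ± 0.0573 FPKM and did not pass (adjusted p = 0.26). With upper-quartile and common-sum scaling all 4 tested genes of this group were lower.

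The makeup of the 4 MXD family genes changed, with MXD1 taking a larger share and MXD4 a smaller one. MXD1, MXD3, MXD4 and MXI1 summed to 77.9 ± 1.65 FPKM with DMSO and 77.8 ± 1.58 FPKM with YM155 on the deposited scale, a difference that was not tested. That sum depended on scaling, checked after the values were seen: it went from 84.9 to 71.3 with upper-quartile, from 87.1 to 69.5 with common-sum and from 87.6 to 70.9 with quantile scaling. As shares of the sum, which a scaling factor per library does not alter, MXD1 went from 10.2% ± 0.533 to 36.2% ± 0.916 and MXD4 from 29.4% ± 1.36 to 7.36% ± 0.541 (SD, n = 3). MXD3 went from 32.4% ± 1.44 to 24.1% ± 0.606, and MXI1 from 27.9% ± 1.62 to 32.4% ± 0.475. The ratio of MXD1 to MXD4 was 0.372, 0.313 and 0.359 in the DMSO libraries and 4.60, 5.48 and 4.73 in the YM155 libraries.

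Across all 9 genes whose proteins pair with MAX, MYC held the largest share of FPKM in both groups. Its share was 56.4%, 57.7% and 58.9% with DMSO and 67.4%, 66.2% and 66.2% with YM155. MYCL went from 7.55% ± 0.232 to 1.116% ± 0.0722. MNT went from 2.05% ± 0.120 to 5.75% ± 0.0278. MYC FPKM over the sum of MXD1, MXD3, MXD4, MXI1 and MNT was 1.65, 1.72 and 1.83 with DMSO and 2.21, 2.09 and 2.09 with YM155. Without MXD3 that ratio was 2.49 ± 0.0965 and 2.65 ± 0.0893, and the lowest YM155 value, 2.58, lay just above the highest DMSO value, 2.575. These are shares of messenger RNA, and protein levels were not measured.

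**Figure D2:**
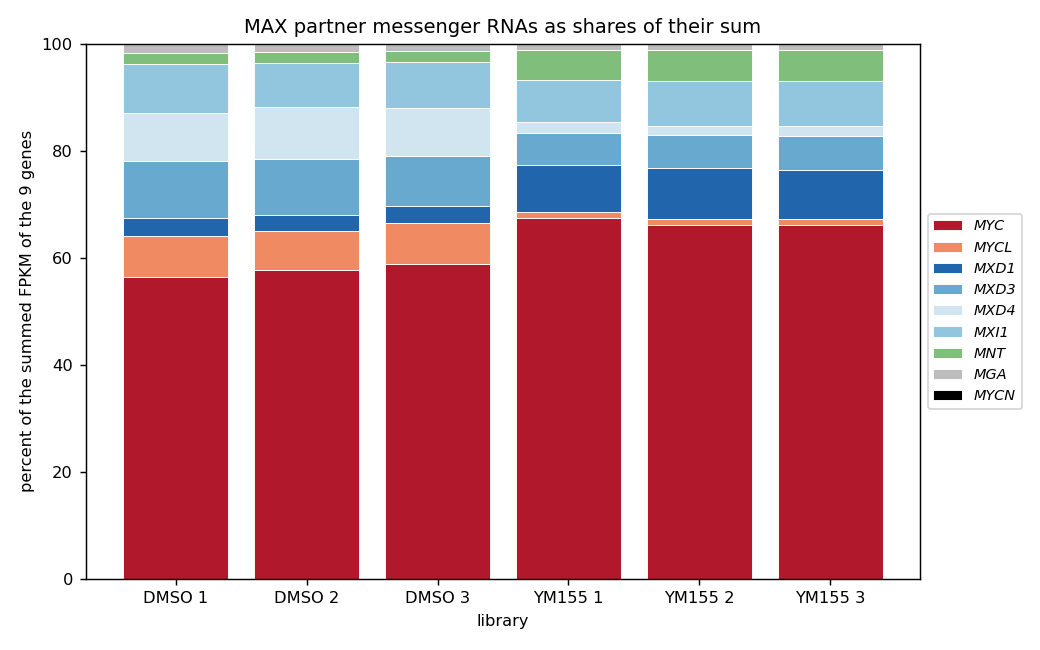
Share of each MAX partner (vertical axis, percent of the summed FPKM of MYC, MYCL, MYCN, MXD1, MXD3, MXD4, MXI1, MNT and MGA) in each of the 6 libraries (horizontal axis). The MYC share is 56.4% to 58.9% with DMSO and 66.2% to 67.4% with YM155, the MXD1 and MNT bands widen, and the MXD4 and MYCL bands narrow.

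The subunits of the glucose-sensing branch parted. MLX, the partner of MondoA and ChREBP, measured 27.6, 28.02 and 28.1 FPKM under DMSO and 62.7, 62.3 and 59.6 FPKM under YM155. It rose 2.203-fold without overlap (27.9 ± 0.275 to 61.5 ± 1.70 FPKM, log2 fold change of 1.11 with an SE of 0.04, adjusted p = 2.4e-08 by limma). MLX overlaps PSMC3IP in RefSeq, which was at 19.4 ± 0.690 and 24.7 ± 1.13 FPKM, and the part of that overlap in the rise was not tested.

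MLXIP, encoding MondoA itself, measured 31.4, 33.5 and 31.8 FPKM under DMSO and 26.2, 24.4 and 24.6 FPKM under YM155. It fell 1.29-fold (32.2 ± 1.15 to 25.1 ± 0.955 FPKM, log2 fold change of -0.35 with an SE of 0.05, adjusted p = 1.3e-04 by limma). With DMSO the MLX level was just under that of MLXIP, at a ratio of 0.880, 0.835 and 0.884. With YM155 the ratio was 2.40, 2.55 and 2.42. MLXIPL, encoding the paralog ChREBP, was scarce (1.57 ± 0.235 and 1.41 ± 0.0567 FPKM, adjusted p = 0.36), so MLXIP made up 94.9% to 95.9% of the FPKM of both genes with DMSO and 94.5% to 94.8% with YM155.

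Both MondoA targets fell. TXNIP, an alpha-arrestin that binds thioredoxin and removes glucose transporters from the surface, measured 139, 136 and 132 FPKM under DMSO and 55.9, 45.1 and 53.1 FPKM under YM155. It fell 2.64-fold (136 ± 3.71 to 51.4 ± 5.63 FPKM, log2 fold change of -1.39 with an SE of 0.07, adjusted p = 1.8e-07 by limma) and ranked 547 among all falls. With DMSO TXNIP was nearly as abundant as MYC, and with YM155 it was below MLX.

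ARRDC4, an alpha-arrestin related to TXNIP, was far scarcer. It measured 3.32, 3.03 and 3.87 FPKM under DMSO and 1.84, 1.75 and 2.21 FPKM under YM155. It fell 1.76-fold (3.41 ± 0.424 to 1.93 ± 0.242 FPKM, log2 fold change of -0.59 with an SE of 0.10, adjusted p = 3.4e-04 by limma), and the pseudocount of 1 makes its log2 value smaller than that of the ratio of means. With a pseudocount of 0.1 it was -0.79, and with quantile scaling it was -0.31. TXNIP FPKM was 34.01 to 44.9 times that of ARRDC4 in the DMSO libraries and 24.1 to 30.4 times in the YM155 libraries.

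The promoters of TXNIP and ARRDC4 are shown because the factors described here bind E-boxes and both genes fell together. The 250 bases before the first RefSeq start (assembly GRCh38.p14, 5′ to 3′ on the gene's strand) were searched on both strands for CACGTG, the E-box preferred by MYC, MAX and MLX pairs, and for the carbohydrate response element pattern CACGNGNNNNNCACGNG, of 2 E-box-like sites 5 bases apart. CACGTG was present in 6.46% of 27305 promoters of that length, and the paired pattern in 0.0586% (16 promoters). In TXNIP (chr1:145996580-145996829, minus strand) the capitals mark both sites of the paired pattern, 88 to 72 bases before the start. In ARRDC4 (chr15:97960453-97960702, plus strand) they mark CACGTG, 210 to 205 bases before the start. The TXNIP window held no CACGTG, and the ARRDC4 window did not hold the paired pattern. The files themselves were made on hg19, and these coordinates are used for the sequence alone.
TXNIP: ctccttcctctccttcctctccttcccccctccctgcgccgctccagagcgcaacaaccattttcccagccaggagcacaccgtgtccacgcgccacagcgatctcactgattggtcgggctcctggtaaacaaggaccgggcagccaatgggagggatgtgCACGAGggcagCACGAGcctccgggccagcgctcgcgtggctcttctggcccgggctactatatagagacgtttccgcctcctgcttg
ARRDC4: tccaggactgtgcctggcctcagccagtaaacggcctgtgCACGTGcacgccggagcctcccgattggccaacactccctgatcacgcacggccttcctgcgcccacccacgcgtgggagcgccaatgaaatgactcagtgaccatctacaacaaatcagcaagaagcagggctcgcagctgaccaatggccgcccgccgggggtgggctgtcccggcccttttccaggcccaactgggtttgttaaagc

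CACGTG was also found before 3 of the network's own genes, which moved in different directions: MXD4 fell, and MNT and MLX rose. The 60 bases around each are given with CACGTG in capitals, from MXD4 (chr4:2262300-2262359, minus strand), MNT (chr17:2401221-2401280, minus strand) and MLX (chr17:42567023-42567082, plus strand).
MXD4: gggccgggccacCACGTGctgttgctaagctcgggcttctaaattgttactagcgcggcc
MNT: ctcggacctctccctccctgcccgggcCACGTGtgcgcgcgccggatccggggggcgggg
MLX: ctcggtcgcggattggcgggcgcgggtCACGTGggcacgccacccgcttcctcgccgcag
The windows of MAX, MXD1, MXI1, MLXIP and TXNIP held no CACGTG in these bases. A match is a description of letters and not a measured binding site, and genes holding CACGTG were found on both sides of the comparison.

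**Figure D3:**
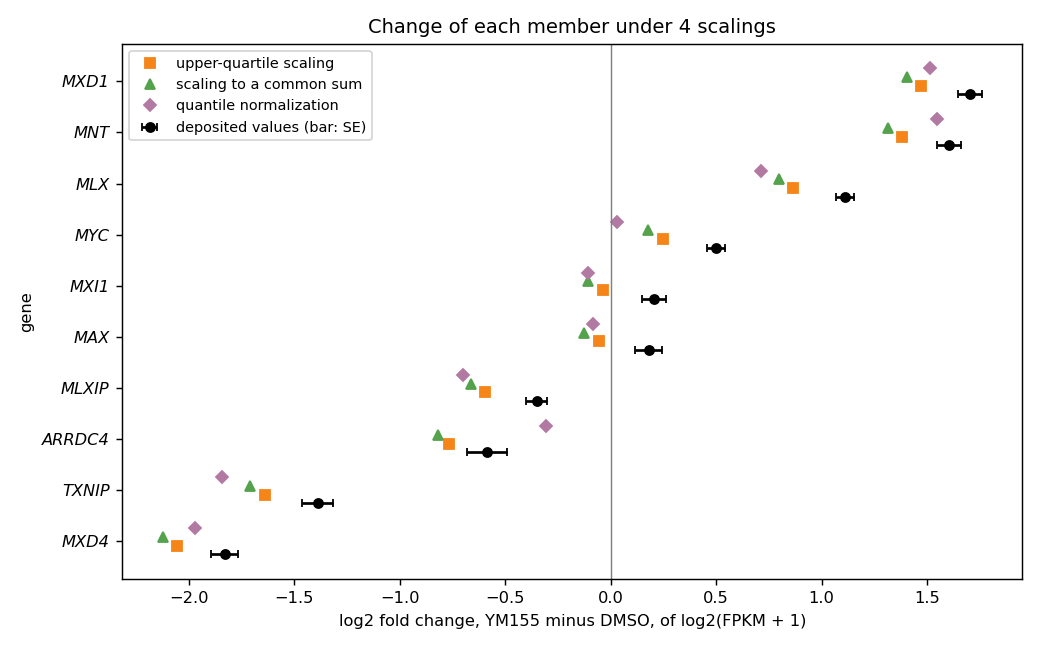
Log2 fold change of each member (horizontal axis, YM155 minus DMSO, of log2(FPKM + 1); genes on the vertical axis) with the deposited values (black, bar = SE) and after upper-quartile, common-sum and quantile scaling. MXD1, MNT and MLX stay above 0 and MXD4, TXNIP, ARRDC4 and MLXIP below 0 in all 4, MYC comes down to 0.03 with quantile scaling, and MXI1 and MAX change sign.

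In the order of levels with DMSO, MYC was followed by TXNIP, MLXIP, MLX, MXD4, MXI1, MAX, MXD1, MNT and ARRDC4. Only MXD4 and MXI1 overlapped as neighbours in that order. With YM155 the order was MYC, MLX, TXNIP, MXD1, MXI1, MLXIP, MAX, MNT, MXD4 and ARRDC4, with overlap between MXI1 and MLXIP and between MAX and MNT. MXD4 thus stood above MXD1 and MNT with DMSO and below both with YM155.

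Lists of genes around the network were read beside the members. Over all tested genes the median log2 fold change was 0.02, with 43.6% higher and 41.0% lower. A near-even split within a list therefore does not set it apart. Of 11 tested genes that act on the MYC locus or its RNA, 9 rose, 1 fell and 1 did not pass (median 0.84, or 0.59, 0.52 and 0.54 with upper-quartile, common-sum and quantile scaling). CNBP, a nucleic acid binding protein of the MYC promoter, went from 95.5 ± 3.61 to 287 ± 7.65 FPKM. IGF2BP2, a reader that stabilizes MYC messenger RNA, rose 2.94-fold, while ELAVL1 did not pass (10.1 ± 0.816 and 10.8 ± 0.161 FPKM). IGF2BP3, named after its values were seen, was the gene that fell (18.6 ± 0.214 to 16.1 ± 1.06 FPKM). PVT1 and CCAT1, non-coding RNAs near MYC that were chosen after their values were seen, rose 2.099-fold and 2.52-fold.

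Of 10 cofactors bound by MYC, 5 rose, 4 fell and 1 did not pass (median 0.33, or 0.09, 0.02 and 0.03 with the same 3 scalings). KAT5, the acetyltransferase TIP60, rose 3.19-fold, and EP400, its remodelling partner, rose 2.61-fold. RUVBL1, an ATPase of the same complex, fell 2.88-fold (86.9 ± 2.88 to 30.1 ± 3.11 FPKM), and BPTF did not pass (17.4 ± 0.291 and 18.7 ± 0.503 FPKM). The other 3 that fell were RUVBL2, KAT2A and ACTL6A, by 1.17-fold to 1.22-fold, named after their values were seen.

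Genes for MYC protein turnover were split, 6 of 12 higher and 6 lower (median 0.14), as tested genes were as a whole. FBXW7, the ubiquitin ligase that targets phosphorylated MYC, rose 4.70-fold (7.23 ± 0.724 to 33.9 ± 1.44 FPKM). USP36, a nucleolar deubiquitinase that stabilizes MYC, rose 4.24-fold. SKP2, another MYC ubiquitin ligase subunit and a cell cycle gene, fell 5.70-fold (19.2 ± 0.992 to 3.37 ± 0.639 FPKM). Of 13 genes of the SIN3, NCOR and histone deacetylase corepressors that MXD proteins and MNT use, 7 rose and 6 fell (median 0.20). The histone chaperone genes RBBP4 and RBBP7 fell 2.67-fold and 2.48-fold. These medians moved with scaling, to -0.08, -0.14 and 0.07 for turnover and -0.04, -0.11 and -0.24 for corepressors with upper-quartile, common-sum and quantile scaling.

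Genes widely described as raised by MYC did not move in a single direction, and neither did tested genes as a whole. Of 41 tested, 23 rose, 10 fell and 8 did not pass, with a median of 0.22. Those counts turned with scaling, to 14 higher and 17 lower with upper-quartile, 13 and 19 with common-sum and 10 and 21 with quantile scaling, with medians of -0.03, -0.10 and -0.14. The largest changes were rises of nucleolar genes: RRP9 5.47-fold (19.7 ± 0.487 to 107.7 ± 6.73 FPKM), RRP12 3.14-fold and NOP2 2.57-fold. Such rises did not extend to every nucleolar gene of the list. BYSL rose 2.43-fold and BOP1 1.77-fold, but NOP56 fell (96.7 ± 2.85 to 64.5 ± 5.14 FPKM). MRTO4 also fell, and NOP58 and NOLC1 did not pass. The largest of the 10 falls were those of CDK4 (1.86-fold) and HSPE1 (1.81-fold). Those further genes were named after their values were seen. FBL, the nucleolar methyltransferase fibrillarin, did not pass (300.6 ± 12.6 and 319 ± 17.6 FPKM).

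Genes described as lowered by MYC were mostly higher. Of 10 tested, 8 rose, 1 fell and 1 did not pass, and the median was 1.38, or 1.11 to 1.26 under those 3 scalings. FTH1, the ferritin heavy chain, rose 9.87-fold, though its many near-identical pseudogenes make its level uncertain. CDKN1A, encoding p21, rose 7.89-fold, and CDKN2B, encoding p15, rose 6.72-fold (4.87 ± 0.753 to 32.7 ± 1.16 FPKM). CDKN1B did not pass (16.8 ± 1.90 and 16.1 ± 0.592 FPKM). NDRG2, also named after its values were seen, was the gene that fell, 4.46-fold. These genes also answer to other regulators, and the part of MYC in their change was not tested.

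On the glucose-sensing side, other genes described as MondoA or ChREBP targets moved in both directions. Of 8 tested, 5 rose, 2 fell and 1 did not pass (median 0.64, or 0.39, 0.32 and 0.17 with upper-quartile, common-sum and quantile scaling). PKLR, the liver-type pyruvate kinase gene, was under 1 FPKM in all 6 libraries and was not tested (0.752 to 0.906 FPKM with DMSO and 0.182 to 0.198 with YM155). HK2, a hexokinase, rose 4.19-fold (8.73 ± 0.172 to 36.6 ± 0.906 FPKM). PFKFB3, which makes the glycolytic activator fructose 2,6-bisphosphate, rose 2.24-fold, and the transcription factor gene KLF10 rose 2.12-fold. ACACA did not pass (39.4 ± 0.755 and 38.9 ± 1.11 FPKM). The 2 that fell, named after their values were seen, were TKFC (2.11-fold) and ACLY (1.08-fold, adjusted p = 0.044 by limma). The ACLY call was lost at a threshold of 0.01, with median-of-ratios scaling, with eBayes without trend, with the replicate block and in 5 of the 6 fits that each left out a library.

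All 3 tested hexokinase genes, whose product glucose 6-phosphate is what MondoA senses, rose: HKDC1 11.1-fold (12.7 ± 1.27 to 139.9 ± 0.686 FPKM), HK2 as above and HK1 2.48-fold. The other 3 tested alpha-arrestins rose as TXNIP and ARRDC4 fell. ARRDC3, which tags receptors for degradation, went from 4.74 ± 0.333 to 38.1 ± 4.09 FPKM, an 8.04-fold rise, ARRDC2 rose 3.15-fold and ARRDC1 2.69-fold.

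Among TXNIP partners, SLC2A1, the glucose transporter GLUT1 that TXNIP removes from the surface, rose 4.08-fold (113 ± 1.85 to 460.2 ± 15.05 FPKM). DDIT4, the mTORC1 inhibitor REDD1 that binds TXNIP, rose 12.98-fold (41.3 ± 5.46 to 536 ± 30.9 FPKM). ITCH, a ubiquitin ligase for TXNIP, rose 2.11-fold, TXN, the thioredoxin that TXNIP binds, rose 1.48-fold, and the mitochondrial TXN2 fell 1.37-fold. Of 7 other E-box factors of the same structural class, 4 rose, 1 fell and 2 did not pass (median 0.69, or 0.44, 0.37 and 0.29 with those scalings). TFE3 rose 6.06-fold (12.3 ± 0.671 to 74.4 ± 1.65 FPKM), SREBF2 2.34-fold and TFEB 2.22-fold, USF2 did not pass (51.7 ± 1.77 and 49.4 ± 0.981 FPKM), and USF1, named after its values were seen, fell 1.49-fold.

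**Figure D4:**
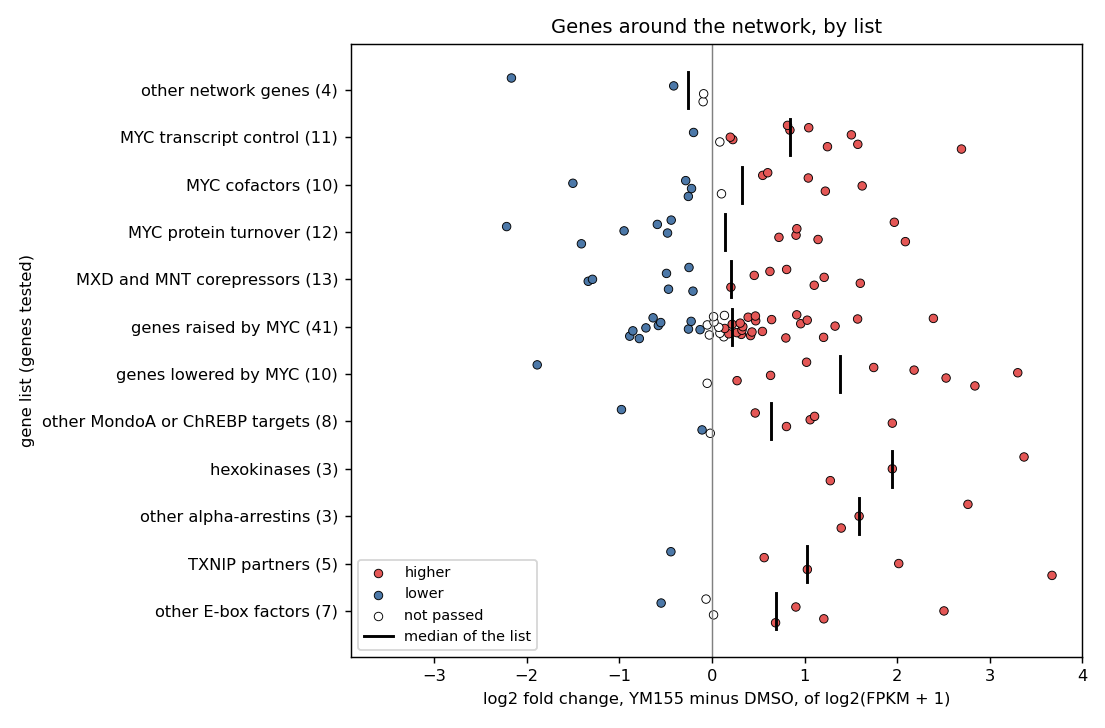
Log2 fold change of each tested gene (horizontal axis, YM155 minus DMSO, of log2(FPKM + 1)) in the 12 lists around the network (vertical axis, number tested in brackets); red points rose, blue fell, white did not pass, and the bar is the list's median. Hexokinases and the other alpha-arrestins lie wholly to the right, and genes raised by MYC lie on both sides of 0.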

How the data were processed

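The authors deposited 1 table of FPKM values per library, named by gene symbol. The submitters' processing notes name hg19 as the build and Cufflinks 2.2.1, Cuffdiff, TopHat2 2.1.1, SAMtools 1.2 and Bowtie2 2.3.5.1 as tools. Settings, annotation and strand use are not given in the sources. Libraries were stranded mRNA libraries, per the labels' protocols. FPKM hold no counts, so no count model was used. Genes with at least 1 FPKM in at least 3 of 6 libraries were tested as log2(FPKM + 1) with limma 3.58.1 in R 4.3.3 (eBayes with trend, two-sided, no replicate block) and Benjamini-Hochberg adjustment over all 12035 tested genes, threshold 0.05. The script was tested on simulated data. Folds are ratios of mean FPKM. Members and lists were chosen with earlier results of these data known. Named from each of 12 lists were all tested genes (lists of up to 5), otherwise the 3 largest changes past the threshold at 5 FPKM or more in the higher group and the most abundant gene not passed. Some genes that this rule names are not reported here. Sequences are from a set of promoter windows at RefSeq starts (GRCh38.p14), which held 9 of the 10 members. MYC had no window in that set. Alternatives covered pseudocount, filter, scaling, variance model, library weights, replicate block, left-out libraries and threshold.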

Additional observations from a re-analysis of the deposited data

How the results depend on the processing

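Of the 10 members, MXD1, MXD4, MNT, MLX, MLXIP, TXNIP and ARRDC4 kept their direction and stayed past the threshold in every alternative that gave a value; ARRDC4 gave none with a mean FPKM of at least 5. Under upper-quartile, common-sum and quantile scaling MAX turned to -0.0568, -0.125 and -0.0819 and MXI1 to -0.0355, -0.105 and -0.105. These scalings put the median of all genes at -0.20, -0.27 and -0.07, from 0.02 as deposited. Relative to it, MAX was at 0.15, 0.14 and -0.0075, MXI1 at 0.17, 0.16 and -0.0304, and MYC at 0.45, 0.45 and 0.10. Of all calls, 51.5% were higher as deposited, and 40.3%, 36.9% and 46.3% under them, 60.2% at a mean of at least 5 FPKM. Quantile scaling left 3 members higher. The mean of at least 5 FPKM left 2922 genes lower, against 4940, with fewer genes tested. Genes raised by MYC counted 14, 13 and 10 higher and 17, 19 and 21 lower under those 3 scalings. Other lists moved by small counts. The other network genes lower numbered 4 with upper-quartile and common-sum scaling, and with quantile scaling 1 was higher. Genes lowered by MYC that fell numbered 2 with each of the 3, and other E-box factors 3, 3 and 2. Genes acting on the MYC transcript that fell numbered 3 with common-sum and quantile scaling and 0 at a threshold of 0.01. MondoA targets that fell numbered 1 with a mean of at least 5 FPKM, median-of-ratios scaling, eBayes without trend, the replicate block and a threshold of 0.01, and 1 to 2 leaving out each library. TXNIP partners that fell numbered 3 without a filter, where SLC2A4 and NLRP3, left out by the main filter, were also tested. The cause of the other shifts was not tested. Deviations of same-numbered libraries correlated at -0.15 to -0.07 across genes, and no library correlated best with its own number. No effect shared by number was seen. Deviations from means of 3 libraries cannot exclude that same-numbered libraries were handled together. With the replicate block 5147 genes were higher and 4861 lower, against 5251 and 4940, and 5 members higher. Read depth per gene was not known, and genes of a few FPKM, such as ARRDC4, TFEB, MGA and MLXIPL, rest on fewer reads per length.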
